A study of Mus musculus with 2 samples.

Results

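The miR-34 and miR-449 miRNAs form a family that shares one seed, the stretch of bases near the 5′ end through which a miRNA pairs with its target mRNAs. The 6 mouse precursors are mmu-mir-34a, mmu-mir-34b, mmu-mir-34c, mmu-mir-449a, mmu-mir-449b and mmu-mir-449c, written miR-34a and so on below. They were taken by name from the 1187 precursors counted in ischemic hindlimb muscle, with earlier results of these data known. A precursor is a hairpin that is processed into mature miRNA, and the counts add up reads of both arms. Of the 6, 4 had counts in both libraries and miR-449b had none in either.

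Small RNA was sequenced from hindlimb muscle taken 1 day after the femoral artery had been removed surgically to make the limb ischemic, an operation both groups underwent. The hypercholesterolemic library (HC) came from ApoE-/- mice, which the series' design describes as kept on a high fat diet. The normocholesterolemic control library (NC) came from C57Bl/6 mice. The comparison asks how miRNA levels in ischemic muscle differ with high plasma cholesterol. Each group was a single library, the labels do not give the number of mice in it, and genotype and diet differed together, so their effects cannot be told apart. ApoE-/- removes apolipoprotein E, a ligand for clearance of lipoprotein remnants by the liver, in the whole animal and not in muscle alone. With no replicates the spread between animals is unknown, no test was run, and every interval below is a 95% interval of counting error only.

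miR-34a, miR-34b and miR-34c are direct transcriptional targets of p53, the DNA damage and stress response factor, and they lower cell cycle and survival proteins such as Cdk6, Ccnd1, Met and Bcl2. miR-34a also represses the deacetylase Sirt1, a link that has been studied in ageing heart and vessels and in fatty liver. The miR-449 precursors lie in the gene Cdc20b, are transcribed in multiciliated epithelial cells of airway, oviduct and brain ventricles, and act there together with miR-34b and miR-34c in the making of motile cilia.

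The 5′ arm carries the seed that defines the family. RefSeq (GRCm38.p6, the assembly of mm10) gave sequences for 5 of the 6 members, with hairpin coordinates equal to those of the deposited files for all 5. The listed 5′ arms are shown with the seed, bases 2 to 8 from the 5′ end, in capitals:
miR-34a-5p: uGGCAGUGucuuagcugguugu
miR-34b-5p: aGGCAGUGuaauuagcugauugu
miR-449a-5p: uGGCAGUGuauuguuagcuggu
miR-449c-5p: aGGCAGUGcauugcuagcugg

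miR-34c-5p, the 5′ arm of miR-34c, belongs to the same seed family and is named only. Among 1679 mature mouse miRNAs in that table, none from outside the family had the seed GGCAGUG. Compared base by base from the 5′ end, miR-34a-5p and miR-449a-5p had 15 of 22 bases equal, miR-449a-5p and miR-449c-5p had 18 of 21, and miR-34a-5p and miR-34b-5p had 11 of 22. The 3′ arms divide the family differently, and are shown with bases 2 to 8 in capitals because the counts do not separate the arms:
miR-34a-3p: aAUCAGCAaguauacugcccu
miR-34b-3p: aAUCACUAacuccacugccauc
miR-34c-3p: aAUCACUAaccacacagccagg
miR-449a-3p: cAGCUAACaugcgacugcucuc

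Of these, miR-34b-3p and miR-34c-3p shared the seed AUCACUA with each other and with no other mature miRNA in the table, and 17 of their 22 bases were equal. The reads of each member were counted over a whole hairpin. The hairpins of the 3 members with the most counts are given with those mature sequences that are printed above in capitals, so that miR-34c-5p stays unmarked within the lower-case 5′ part of its hairpin:
miR-34a: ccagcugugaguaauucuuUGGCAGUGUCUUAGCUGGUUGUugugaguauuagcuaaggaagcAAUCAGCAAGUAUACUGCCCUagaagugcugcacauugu
miR-34b: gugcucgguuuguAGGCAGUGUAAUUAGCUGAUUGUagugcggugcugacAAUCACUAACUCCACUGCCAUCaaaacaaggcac
miR-34c: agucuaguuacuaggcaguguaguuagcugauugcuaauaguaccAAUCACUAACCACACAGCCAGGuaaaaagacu

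The longest run of bases common to a pair of the 5 hairpins was 11, in miR-34b with miR-34c and in miR-34a with miR-449a. Against 1000 other mouse hairpins in the table, the longest shared run was 10 bases for miR-34a, 11 for miR-34b, 11 for miR-34c, 14 for miR-449a and 11 for miR-449c. A read of a whole mature miRNA, which is 21 to 23 bases long here, therefore had an exact match in 1 of these hairpins alone.

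The members sit at 3 places in the genome (mm10 coordinates). miR-34a lies on the plus strand of chromosome 4 at 150068454 to 150068555, where the last 17 bases of its hairpin overlap an exon of Gm37795, an uncharacterised transcript on the same strand. miR-34c (chromosome 9, 51103034 to 51103110) and miR-34b (chromosome 9, 51103562 to 51103645) are on the minus strand, 451 bases apart, opposite an intron of Btg4, an oocyte and germ cell gene on the plus strand. miR-449c (chromosome 13, 113035983 to 113036091), miR-449b (113037419 to 113037498) and miR-449a (113037534 to 113037624) lie on the plus strand in introns of Cdc20b, with 35 bases between miR-449b and miR-449a. No member overlapped another counted precursor, and every counted precursor within 10 kb of a member was itself a member.

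The libraries held 31198050 precursor counts in HC and 43848576 in NC, with at least 1 count for 663 precursors in HC and 691 in NC. Levels are given as CPM, counts divided by a library size scaled with the trimmed mean of M-values (TMM) and multiplied by 1e6, on which a count of 0 allows up to 0.0918 CPM in HC and 0.0717 CPM in NC. The defining miRNAs of muscle fibres were present at high levels: miR-133a-1 stood at 65127 CPM in HC and 65383 CPM in NC, and miR-1a-1 at 1826 CPM in HC and 1320 CPM in NC. The 3 precursors of the neuronal miR-124, which are copies, were below 1 CPM in both libraries. The neuronal miR-9-1 was higher, at 4.96 CPM in HC and 8.29 CPM in NC, and its copies miR-9-2 and miR-9-3 were nearly equal to it.

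The family was a minor part of the muscle miRNA pool, and its share of precursor counts was nearly equal in hypercholesterolemic and normocholesterolemic muscle. Its 6 precursors held 1080 counts in HC and 1519 in NC. That is 34.6 CPM in each library when plain totals take the place of TMM library sizes. With TMM library sizes the sum was 33.0 CPM in HC and 36.3 CPM in NC. In both libraries miR-34c led, miR-34a came next, miR-34b followed, miR-449a was far lower, and miR-449c and miR-449b were at or under the limit of 3 counts.

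miR-34c, from the cluster that is active in ciliated epithelium and male germ cells, had 736 counts (22.5 CPM) in HC and 1022 counts (24.4 CPM) in NC. It ranked 184th of the 1187 precursors in HC and 177th in NC. It held 68.1% of the family's counts in HC (exact binomial interval 65.3 to 70.9%) and 67.3% in NC (64.9 to 69.6%). In each library it was the only member above 10 CPM.

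miR-34a, the member best known from the p53 response, had 239 counts (7.31 CPM) in HC and 336 counts (8.03 CPM) in NC. Its share of the family's counts was 22.1% in HC (19.7 to 24.7%) and 22.1% in NC (20.1 to 24.3%). miR-34a thus held the same place in both libraries, below miR-34c by 3.08-fold in HC (2.66 to 3.58) and by 3.04-fold in NC (2.69 to 3.45). These ratios are taken within a library and need no scaling between libraries. They compare counts of different hairpins without a length correction, since the mature miRNAs are of nearly equal length. Whether the library preparation captured these different miRNAs equally was not tested, so the ratios are of counts and need not be those of molecules.

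miR-34b, which is cut from the same locus as miR-34c, had 89 counts (2.72 CPM) in HC and 148 counts (3.54 CPM) in NC. It held 8.24% of the family's counts in HC (6.67 to 10.04%) and 9.74% in NC (8.30 to 11.3%). miR-34c exceeded its neighbour 8.27-fold in HC (6.63 to 10.4) and 6.91-fold in NC (5.81 to 8.26). The HC ratio over the NC ratio was 1.20 with an interval of 0.898 to 1.60, so a difference in the balance of the 2 neighbouring hairpins was not detectable at this depth. For miR-34c against miR-34a the same quotient was 1.01 (0.833 to 1.23), and for miR-34a against miR-34b it was 1.18 (0.857 to 1.64).

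The miR-449 precursors were close to the limit of the data. miR-449a had 15 counts in HC (0.459 CPM, interval 0.257 to 0.757) and 13 counts in NC (0.311 CPM, interval 0.165 to 0.531). miR-449c had 1 count in HC and 0 in NC, and miR-449b had 0 in both. Together the miR-449 precursors had 16 counts in HC and 13 in NC, while the miR-34 precursors held 98.5% of the family's counts in HC (97.6 to 99.2%) and 99.1% in NC (98.5 to 99.5%). Within each library the counting intervals of miR-34c, miR-34a, miR-34b and miR-449a did not overlap one another, whereas miR-449b and miR-449c could not be ordered.

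**Figure D1:**
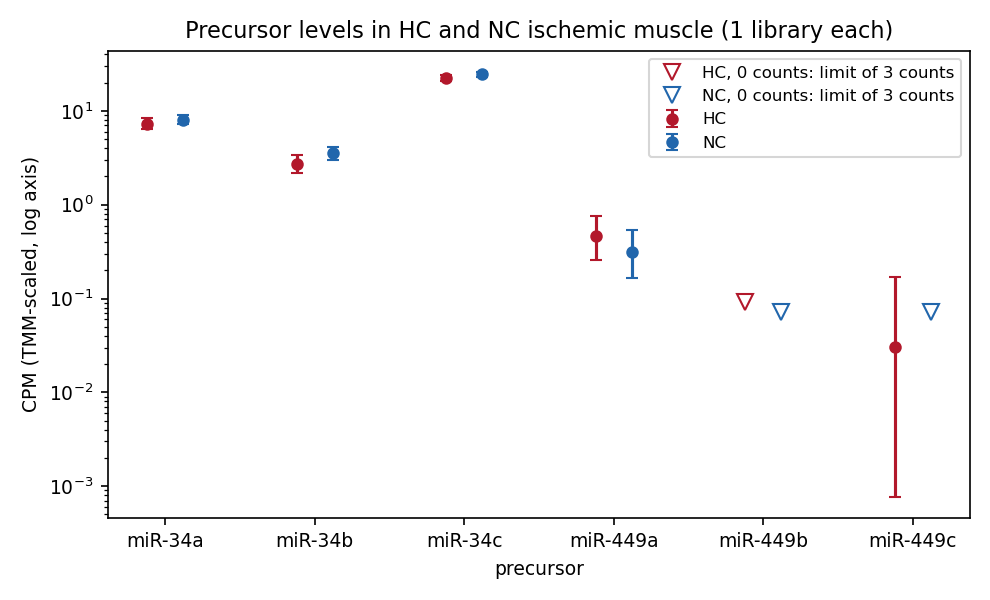
Level of each precursor in CPM (TMM-scaled, log axis) in the HC library (left point of each pair) and the NC library (right point), with 95% Poisson counting intervals; open triangles mark the limit of 3 counts where a library had 0. The HC and NC points of miR-34a, miR-34b, miR-34c and miR-449a lie close together, with miR-34c highest at 22.5 CPM in HC and 24.4 CPM in NC.

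Between the libraries scaled with TMM, no member differed by 2-fold, and the counting interval of each of the 4 members with a fold held equality. The log2 fold of HC over NC was -0.12 for miR-34c (interval -0.26 to 0.02), -0.13 for miR-34a (-0.38 to 0.11) and -0.38 for miR-34b (-0.77 to 0.01). On the linear scale the ratio of HC to NC was 0.922 for miR-34c (0.838 to 1.01), 0.911 for miR-34a (0.768 to 1.08) and 0.770 for miR-34b (0.585 to 1.01). These 3 intervals leave out a 2-fold difference in either direction in these libraries. For miR-449a the log2 fold was 0.56, but its interval of -0.61 to 1.75 reached past 2-fold higher, so the depth sets little limit on it. No fold was formed for miR-449b and miR-449c, whose counts were at or below 3 in both libraries.

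Direction depended on how the libraries were scaled. The log2 fold of miR-34c was 0.02 with plain library totals and -0.23 with the authors' own scaling, and that of miR-34a was -0.00038 with plain totals and -0.25 with the authors' scaling. Plain totals shift every log2 fold by 0.13 against TMM and the authors' scaling by -0.11. miR-34b lay below 0 under all 5 scalings, between -0.49 and -0.24, and its interval excluded 0 with the authors' scaling alone (-0.89 to -0.10). The same held for the intervals of miR-34c (-0.37 to -0.09) and miR-34a (-0.49 to -0.0033) with that scaling. The summed counts of the family had a log2 fold of -0.14 with TMM (-0.25 to -0.02) and -0.0010 with plain totals (-0.11 to 0.11).

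**Figure D2:**
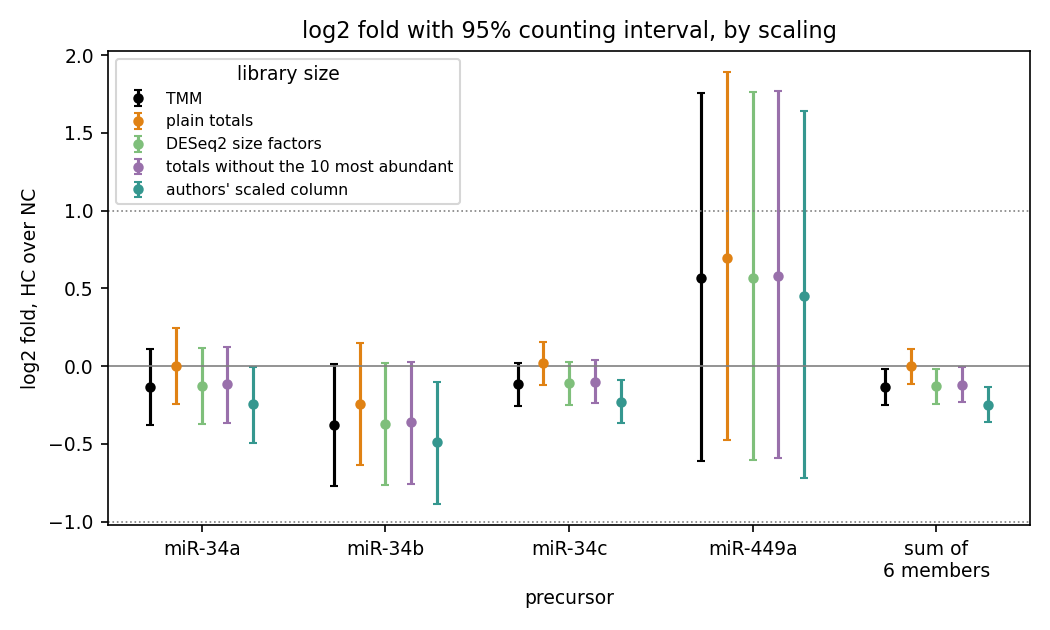
The log2 fold of HC over NC with its 95% counting interval for miR-34a, miR-34b, miR-34c, miR-449a and the sum of the 6 members, under 5 definitions of library size (colours); dotted lines mark 2-fold. The miR-34 points stay between -0.49 and 0.02, while the miR-449a interval runs from below 0 to above 1 under every scaling.

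Few of the precursors as a whole were 2-fold apart after TMM scaling. At a mean of at least 10 CPM, where miR-34c alone of the family stood, 5 of 222 precursors (2.25%) were at least 2-fold apart with an interval that excluded equality, and miR-34c was not among them. At a mean of at least 1 CPM, which takes in miR-34a and miR-34b, it was 13 of 335 precursors (3.88%) and 0 of the 3 members. An interval that excluded equality, at any size of fold, was found for 83.3% of the precursors at 10 CPM and 69.0% at 1 CPM, against 0 of the 3 members at 1 CPM. Most precursors at these filters hold more counts than the members and so have narrower intervals. The median log2 fold of all precursors was 0.00 at 10 CPM, a centre that TMM scaling itself sets near 0. The central 90% lay between -0.47 and 0.47.

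Precursors of like level give a closer background. Of the 35 others within 1.5-fold of the mean CPM of miR-34c, 11 had a lower log2 fold, and the central 90% ran from -0.73 to 0.62. For miR-34a, 15 of 41 such precursors had a lower log2 fold, and for miR-34b it was 4 of 34, with a central 90% of -1.14 to 0.92. For miR-449a, 37 of 41 had a lower log2 fold, within a central 90% of -1.78 to 0.90. All 4 members therefore lay inside the central 90% of precursors at their own level.

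**Figure D3:**
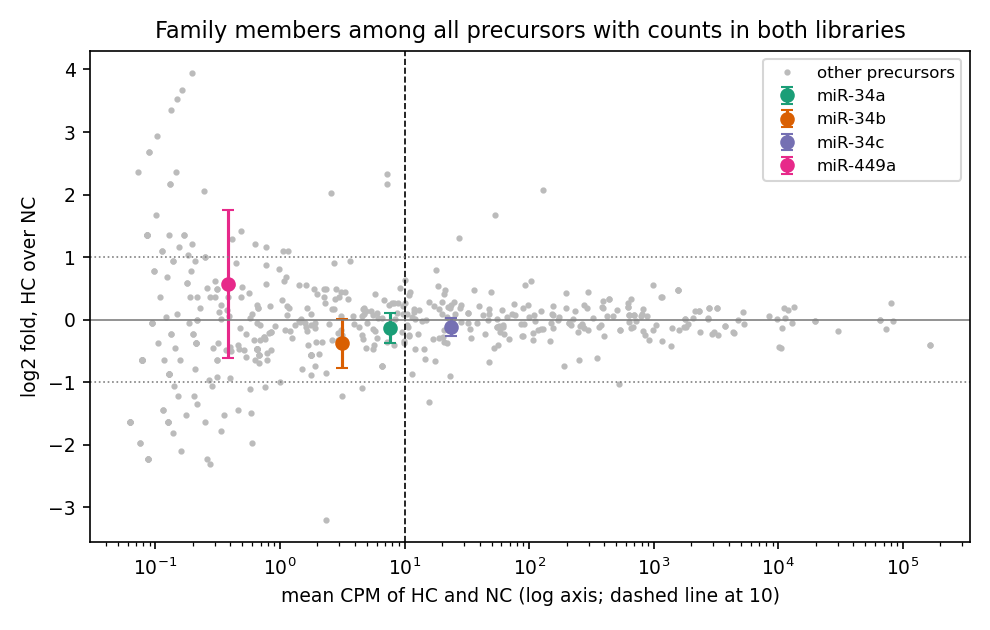
The log2 fold of HC over NC against mean CPM (log axis) for precursors with counts in both libraries and more than 3 counts in at least 1 (grey), with miR-34a, miR-34b, miR-34c and miR-449a in colour with 95% counting intervals; dotted lines mark 2-fold and the dashed line 10 CPM. The members fall within the grey cloud, whose spread widens as the level falls.

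The precursors nearest to miR-34c in level over both libraries were miR-3061, with 22.2 CPM in HC and 23.6 CPM in NC, miR-615, with 24.5 CPM in HC and 24.4 CPM in NC, and the hypoxia-induced miR-210, with 22.5 CPM in HC and 21.7 CPM in NC. Their distances to miR-34c, taken over the log2 CPM of the 2 libraries, were 0.06, 0.12 and 0.17. In the order of mean CPM, miR-339, miR-615 and miR-29b-1 stood just above it and miR-3968, miR-29b-2 and miR-3061 just below. The widest difference among these was that of miR-3968, at 16.2 CPM in HC and 30.2 CPM in NC, a log2 fold of -0.90. Likeness over 2 libraries is likeness of level only.

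Other miRNAs that p53 is known to raise, by transcription or by faster processing of their precursors, had no common direction. Of 15 such precursors in the files, 13 reached a mean of 10 CPM, with 5 higher and 6 lower in HC by their counting intervals, where 39.6% of all 222 precursors were higher and 43.7% lower. The higher count the copies miR-16-1 and miR-16-2 separately, and the lower likewise miR-194-1 and miR-194-2. None of the 13 differed by 2-fold. They had a median log2 fold of -0.05, also with 1 precursor per set of copies, beside 0.00 for all 222. That median was 0.08 with plain totals, which shift every log2 fold, those of all 222 included, by 0.13. Across all 5 scalings 4 kept a higher and 5 a lower value with an interval clear of 0. The 39.6% and 43.7% are for TMM alone, and no count across all 5 scalings was made for all 222. miR-149, a p53-responsive miRNA in human melanoma, was at 228.2 CPM in HC and 169.6 CPM in NC, a log2 fold of 0.43 (0.38 to 0.48). miR-22, the most abundant member and a p53 target that represses p21, was at 87569 CPM in HC and 73071 CPM in NC, a log2 fold of 0.26.

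miR-16-1, which slows the cell cycle through cyclins and whose processing p53 enhances, had 3438 CPM in HC and 3029 CPM in NC, a log2 fold of 0.18, and its neighbour miR-15a had 0.15. miR-192, which raises p53 by lowering MDM2 in human myeloma cells, was lower, at 783.7 CPM in HC and 933.8 CPM in NC, a log2 fold of -0.25 (-0.28 to -0.23). miR-143, whose processing p53 also enhances, had a log2 fold of -0.14, which came to -0.01 with plain totals. miR-107 (-0.05), from the Pank1 gene, and miR-145a (-0.06) had no firm direction. The miR-34 members, between -0.38 and -0.12, thus lay within the range of the 13 at 10 CPM, -0.46 to 0.43, although miR-34a and miR-34b were themselves below 10 CPM. The lowest of the 13 was miR-141, which is also on the epithelial list below, and the next lowest was miR-194-2 at -0.38. Below 10 CPM, miR-200c, also on the epithelial list, was lower still, at 1.68 CPM in HC and 3.03 CPM in NC. Its log2 fold was -0.85 (-1.33 to -0.38), and that of miR-215 was -0.08 (-0.42 to 0.27).

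The miR-17-92 precursors, which p53 represses, were lower in HC or had intervals that held 0, apart from miR-18a. Of the 5 at a mean of 10 CPM, 3 were lower by their intervals and 0 higher, where 43.7% of all 222 precursors were lower and 39.6% higher. Of these, 2 stayed lower under all 5 scalings, a count that has no background of all 222 beside it. The median log2 fold of the 5 was -0.24. miR-92a-1 was at 2994 CPM in HC and 3551 CPM in NC (log2 fold -0.25), miR-19b-1 at 80.2 CPM in HC and 96.3 CPM in NC (-0.26), miR-19a at -0.24, miR-17 at -0.04 and miR-20a at 0.09. miR-18a lay below 10 CPM, at 8.69 CPM in HC and 7.22 CPM in NC, with a higher value in HC by its interval, 0.27 on the log2 scale (0.03 to 0.51), an interval that did not stay clear of 0 under all 5 scalings.

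miRNAs that act on p53 or its regulators had a median log2 fold of 0.03 over the 8 precursors at a mean of 10 CPM. By their intervals 4 were higher and 3 lower in HC, beside 39.6% higher and 43.7% lower among all 222 precursors. The higher include the copies miR-29b-1 and miR-29b-2, and the lower include miR-125b-1 and miR-125b-2. That median was -0.09 with the authors' scaling and 0.16 with plain totals, shifts that apply equally to all other precursors. The p53-repressing miR-125b had -0.03 for miR-125b-2 and -0.04 for miR-125b-1, miR-30d had -0.01 and miR-25 had -0.08. The miR-29 precursors, which raise p53 through its inhibitors, had 0.06 for miR-29a, 0.19 for miR-29c and 0.24 for miR-29b-1, of which miR-29c alone kept an interval above 0 under all 5 scalings. miR-504, below 10 CPM and named after its value was seen, had 116 counts in HC and 79 in NC, a log2 fold of 0.91 (0.49 to 1.34) whose interval stayed above 0 under all 5 scalings.

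Epithelial miRNAs, the nearest markers here for the cells that make miR-449, were lower in HC. All 7 at a mean of 10 CPM were lower by their intervals with TMM, where 43.7% of all 222 precursors were. Under all 5 scalings 6 of them kept that, a count not made over all 222. Their median log2 fold was -0.62. The summed level of the 11 listed epithelial precursors was 455.6 CPM in HC and 672.1 CPM in NC, none was at 0, and single levels ran from 0.612 to 277.5 CPM in HC and from 0.765 to 423.6 CPM in NC. The most abundant, miR-182, had 277.5 CPM in HC and 423.6 CPM in NC. miR-34b, miR-34c and the miR-449 precursors are also made in epithelium, and the part of epithelial tissue in their values was not tested. In bulk tissue, fewer cells of a type and less miRNA per cell cannot be told apart.

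Leukocyte and muscle miRNAs went in both directions, while the neuronal precursors lay below 0. The 4 leukocyte miRNAs summed to 2303 CPM in HC and 2298 CPM in NC, with none at 0, and their log2 folds ran from -0.75 to 0.44. The 8 muscle precursors summed to 136265 CPM in HC and 136069 CPM in NC, with none at 0. Most of that sum was miR-133a-1 (65127 CPM in HC, 65383 CPM in NC) and its copy miR-133a-2 (65109 CPM in HC, 65374 CPM in NC). miR-1a-1 and miR-1a-2 are also copies with nearly equal counts, so the sum is not one of distinct miRNAs. By their intervals with TMM 4 muscle precursors were higher and 4 lower, where 39.6% of all 222 precursors were higher and 43.7% lower. Across all 5 scalings 4 muscle precursors stayed higher and 1 stayed lower, a count not made over all 222 precursors. The copies miR-1a-1 and miR-1a-2 were both among the higher. The muscle log2 folds ran from -0.20 to 0.63. The 6 neuronal precursors, all below 10 CPM, summed to 16.9 CPM in HC and 27.4 CPM in NC, a sum over copies of miR-9 and of miR-124. The miR-9 copies miR-9-1, miR-9-2 and miR-9-3, with nearly equal counts, had log2 folds of -0.74, -0.74 and -0.75 with intervals below 0 under all 5 scalings, whereas the intervals of the miR-124 precursors held 0. How far any of these cell types entered the values of the miR-34 precursors was not tested.

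**Figure D4:**
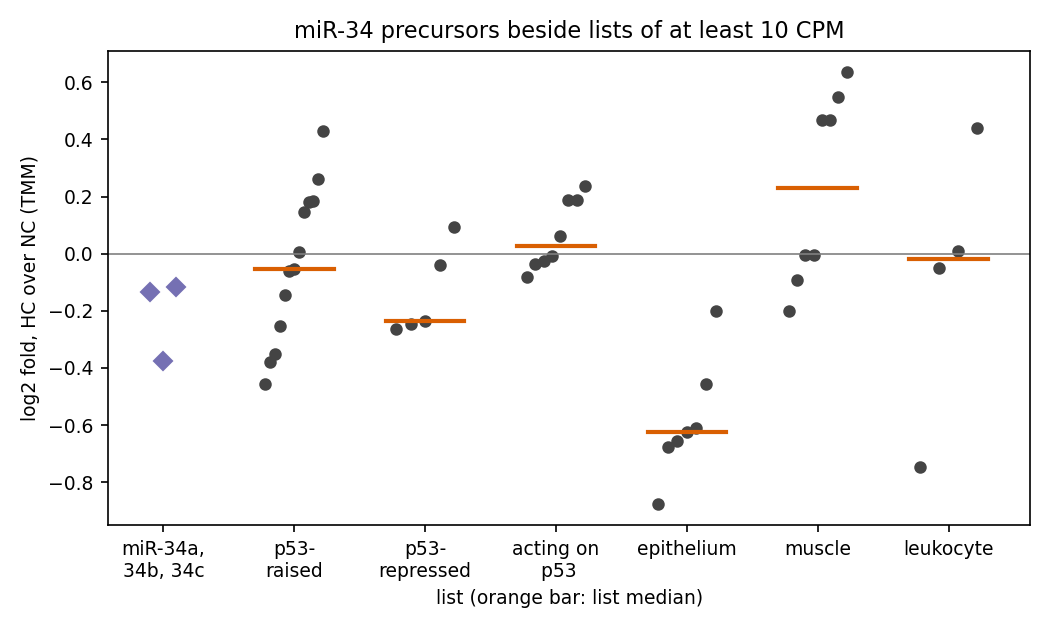
The log2 fold of HC over NC (TMM) for miR-34a, miR-34b and miR-34c (diamonds, all levels) and for those precursors of 6 lists whose mean reached 10 CPM (circles), with list medians as orange bars. The miR-34 precursors lie between -0.38 and -0.12, within the range of the p53-raised list and above the epithelial median of -0.62.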

How the data were processed

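Small RNA libraries were made with the TruSeq small RNA preparation after Trizol and mirVana extraction, per the labels' protocols. Among tools, CASAVA 1.8.2, TopHat2 2.0.10 and HTSeq 0.5.4 are listed, with the build mm10, per the submitters' processing notes. The sources used here do not say how reads were trimmed, assigned by strand or handled when they aligned to several places. Nor do they say which miRNA annotation was used. Copies such as miR-133a-1 and miR-133a-2 had nearly equal counts, and whether the same reads were counted at each copy was not tested. The deposited values are whole-number read counts per precursor, and 5 summary rows that name no precursor stayed out of library sizes; they listed 55.9% of all counts as outside precursors in HC and 44.1% in NC. A column the deposited headers call RPM, a constant multiple of the count, was taken as a signal of the authors' own scaling; it served only for an alternative scaling.

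Counts were scaled with TMM in edgeR 4.0.16 (R 4.3.3), without any edgeR test. CPM are counts per scaled library size multiplied by 1e6. Folds are ratios of HC to NC with no pseudocount and an exact conditional binomial 95% interval; shares have exact Clopper-Pearson intervals and levels exact Poisson intervals (SciPy 1.17.1). Reads counted without molecular identifiers need not be separate molecules, so the intervals and the limit of 3 counts cover counting error only. The size rule asked for a mean of at least 10 CPM, a 2-fold difference and an interval that excluded equality. Its procedure was tested on simulated counts with counting error alone and no spread between animals. At 10 CPM it called 13 of 13 simulated 4-fold rises and 9 of 9 falls to 0.25-fold. It called 2 of 5 rises of 2-fold, 3 of 5 falls to 0.5-fold and 0 of 182 unchanged precursors. Alternatives were plain totals, DESeq2 1.42.0 size factors, totals without the 10 most abundant precursors, the authors' scaling, other filters, a 1.5-fold limit and 1 precursor per set of copies.

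All 6 members were named, and from each list those past the size rule or otherwise up to 8 of the most abundant, 1 per set of copies; of the lists for other cell types, only examples from this rule are named. The members and lists were chosen with earlier results of these data known. One listed precursor, mir-605, was not analysed here. Sequences are from RefSeq (GRCm38.p6) and neighbouring genes from GENCODE M21 (GRCm38).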

Additional observations from a re-analysis of the deposited data

Results flagged for a closer look

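Counts outside all precursors were 55.9% of everything listed for HC and 44.1% of everything listed for NC; none of them entered a comparison, and the share is given because it was above that of the control library.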

How the results depend on the processing

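The log2 folds of miR-34a, miR-34b, miR-34c and miR-449a stayed inside their TMM counting intervals under all 4 other scalings, although the sign of miR-34c changed with plain totals and the intervals of miR-34a, miR-34b and miR-34c excluded 0 with the authors' scaling. The log2 fold of the summed family counts was -0.14 with TMM and -0.0010 with plain totals, a shift that the change of library sizes sets. Its interval held 0 with plain totals alone. The number of precursors past the size rule was 5, and it was 13 when the mean had to reach 1 CPM, 3 when it had to reach 50 CPM, 35 with no filter, 10 when the 10 most abundant precursors were left out of the totals, where CPM values are larger and more precursors pass the filter, and 16 at a limit of 1.5-fold. No member overlapped another precursor, so leaving out overlapping members changed no share. No paired analysis was possible because each group held 1 library, and for the same reason no replicate could be left out. At this depth the counts limit miR-449a, miR-449b and miR-449c most.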
